A study of Mus musculus with 18 samples.

Results

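The genes described here encode the proteasome and its assembly factors and activators. They were chosen by symbol, as Psma, Psmb, Psmc, Psmd, Psme or Psmg followed by a digit, with more than 100 counts summed over a table. This gave 48 of the 23052 gene symbols in each of 2 count tables, and all 48 had enough counts to be tested in both. A 49th symbol, Psmb11, the catalytic subunit of thymic cortical epithelium, had 0 and 2 counts and was left out. The lowest totals inside the threshold were those of Psma8, a testis-type alpha subunit, with 673 counts in the tolerant set and 169 in the stimulation set, and of Psmc3ip, with 483 and 291. Psmc3ip matches by symbol only, since it encodes a meiotic recombination factor and not a proteasome subunit. Psme2b is a retrocopy of Psme2 whose transcript was 99.4% identical to that of Psme2 over 794 aligned bases. Its exons also overlap those of the gene 9930111J21Rik1 on the same strand. For both reasons the counts of Psme2b are uncertain. Reads shared by the 2 copies may also affect the counts of Psme2, by an amount not measured here.

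The proteasome is a barrel of stacked alpha and beta rings that degrades ubiquitinated proteins, capped by a regulatory particle whose ATPases unfold the substrate and whose lid removes the ubiquitin. The beta subunits Psmb5, Psmb6 and Psmb7 carry the catalytic sites, and in immune cells Psmb8, Psmb9 and Psmb10 can take their places to form the immunoproteasome. Psme1 and Psme2 form an alternative cap, PA28αβ, and with the inducible beta subunits they are known for interferon responses and for making peptides that are loaded on class I molecules. In the text below these 5 genes are called inducible, and the other 43 members include 31 constitutive subunits of the core and the regulatory particle (without Psma8).

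RNA was sequenced from bone marrow-derived macrophages of C57BL6/J wild type mice, differentiated for 7 days in 20% L929-conditioned medium and 80% DMEM. In the stimulation set, cells received LPS for 6 h, IL-4 for 6 h or no stimulus, with 2 libraries per group. In the tolerant set every group held endotoxin-tolerant macrophages, which have met endotoxin before and respond less to it. They were kept without glutamine but with α-ketoglutarate (AKG), without glutamine, or with glutamine, with 4 libraries per group. The sources used here give neither doses nor the tolerance protocol, nor whether replicates are separate cultures or animals, so p-values measure only the spread between these samples. Series text names the question as which transcripts glutamine metabolism affects in tolerant macrophages. The 2 sets were tabulated separately and are tested only within themselves.

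Library totals ran from 34227368 to 39760356 counts in the stimulation set and from 28302158 to 37834680 counts in the tolerant set. Macrophage markers summed to 26686 to 46817 CPM (the usual depth-scaled count, here with TMM factors) over all 18 libraries, and lymphocyte markers to at most 1.57 CPM. The 8 stromal fibroblast markers summed to 108 to 392 CPM with AKG, 47.9 to 200 CPM without glutamine and 415 to 2172 CPM with glutamine, and to 91.2 to 135 CPM over the stimulation set. In the tolerant set, replicates 3 and 4 stood apart from replicates 1 and 2 in every group. Fewer cells of a type and less RNA per cell cannot be told apart in such bulk samples.

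Set side by side per exonic length (RPKM, CPM per kilobase of exon, means of a group), the members changed their order with LPS. Psme2 was highest with LPS at 583 ± 47.8 RPKM, followed by Psma6 at 442 ± 36.3 and Psme1 at 283 ± 32.0 (SD, n = 2). In untreated cells Psmb6, a constitutive catalytic subunit, was highest at 122 ± 12.9 RPKM, and the next 3 members, Psma1, Psmd2 and Psme1, had 101 ± 9.80, 97.7 ± 7.13 and 97.2 ± 5.29 RPKM, values that lie within each other's spread. With IL-4 Psmb6 was again first at 134 ± 8.13 RPKM, ahead of Psme1 at 122 ± 2.12 and Psme2 at 112 ± 2.87 RPKM. In all 3 tolerant groups the first 3 places were held by Psme1, Psme2 and Psmb6, between 116 and 162 RPKM, and without glutamine their means lay within each other's spread. The median over the 5 inducible members was 212 RPKM with LPS, 77.1 with IL-4 and 34.9 untreated, and 76.4 with AKG, 60.4 without and 65.7 with glutamine. For the constitutive beta ring it was 95.9 RPKM with LPS, 60.8 with IL-4 and 56.2 untreated, and between 55.6 and 57.9 in the tolerant groups. Assembly factors were low throughout, with group medians of 8.67 to 10.8 RPKM.

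The 5 inducible members sit in 3 places of the mouse genome (GRCm38). Psmb9 (chr17:34181987-34187764, minus strand) and Psmb8 (chr17:34197721-34201454, plus strand) flank Tap1 in the class II region of the histocompatibility complex, within a stretch of 34.3 kb that ends with Tap2. Exons of Psmb9 and Tap1 overlap on opposite strands, and no source used here gives the strand setting of the counting, so reads of the shared part are uncertain. Psme1 (chr14:55578123-55581529, plus strand) and Psme2 (chr14:55587441-55591113, minus strand) lie 5.91 kb apart, and Psmb10 is at chr8:105935735-105938444 (minus strand). Their promoters are shown because these genes moved together with LPS, beside that of Psmb5, the constitutive counterpart of Psmb8. The windows run from 250 bases before to 50 bases after a start site (RefSeq, GRCm38.p6), 5′ to 3′ on the gene's strand, and capitals mark motif matches.
Psmb8: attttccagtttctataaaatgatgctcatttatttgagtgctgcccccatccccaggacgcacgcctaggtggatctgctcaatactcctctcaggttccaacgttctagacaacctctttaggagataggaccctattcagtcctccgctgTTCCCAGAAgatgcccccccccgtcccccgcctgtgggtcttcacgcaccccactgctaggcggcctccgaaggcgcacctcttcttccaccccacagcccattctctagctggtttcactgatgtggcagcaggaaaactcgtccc
Psmb9: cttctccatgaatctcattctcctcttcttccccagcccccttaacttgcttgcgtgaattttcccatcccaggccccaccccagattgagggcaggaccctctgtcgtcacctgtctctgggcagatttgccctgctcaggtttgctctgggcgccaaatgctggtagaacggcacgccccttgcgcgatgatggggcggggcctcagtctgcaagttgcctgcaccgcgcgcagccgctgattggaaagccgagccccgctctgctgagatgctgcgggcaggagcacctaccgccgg
Psmb10: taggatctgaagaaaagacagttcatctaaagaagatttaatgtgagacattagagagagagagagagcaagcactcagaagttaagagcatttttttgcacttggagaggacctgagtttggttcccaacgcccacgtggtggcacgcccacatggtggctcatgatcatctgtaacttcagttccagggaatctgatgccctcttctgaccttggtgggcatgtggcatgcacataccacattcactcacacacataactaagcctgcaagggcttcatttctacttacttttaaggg
Psme1: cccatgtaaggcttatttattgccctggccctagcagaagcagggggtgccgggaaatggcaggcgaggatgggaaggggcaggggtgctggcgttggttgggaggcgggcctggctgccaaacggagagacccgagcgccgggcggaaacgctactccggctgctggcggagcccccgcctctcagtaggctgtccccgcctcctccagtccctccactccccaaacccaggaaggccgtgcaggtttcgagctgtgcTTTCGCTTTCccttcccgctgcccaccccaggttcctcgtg
Psme2: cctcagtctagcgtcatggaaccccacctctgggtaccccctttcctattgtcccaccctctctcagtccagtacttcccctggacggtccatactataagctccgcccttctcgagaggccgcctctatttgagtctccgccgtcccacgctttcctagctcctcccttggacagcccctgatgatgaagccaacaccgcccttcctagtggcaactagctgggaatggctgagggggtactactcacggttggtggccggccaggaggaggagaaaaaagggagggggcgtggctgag
Psmb5: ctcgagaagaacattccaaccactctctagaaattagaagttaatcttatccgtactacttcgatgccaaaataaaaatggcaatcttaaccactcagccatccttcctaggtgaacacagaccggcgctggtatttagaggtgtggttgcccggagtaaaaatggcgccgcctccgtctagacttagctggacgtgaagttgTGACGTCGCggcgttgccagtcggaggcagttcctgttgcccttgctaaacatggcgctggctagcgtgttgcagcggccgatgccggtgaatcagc
These windows are chr17:34197945-34198244 for Psmb8, chr17:34187281-34187580 for Psmb9, chr8:105938343-105938642 for Psmb10, chr14:55578244-55578543 for Psme1, chr14:55590972-55591271 for Psme2 (the first of 2 listed) and chr14:54617946-54618245 for Psmb5.

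Known response elements were searched on both strands, and no match in these windows overlapped another. The interferon-stimulated response element, as GAAA, NN and GAAA joined, was found in Psme1 (bases 260 to 269 of the 300, as TTTCGCTTTC), in 4 of the 38 promoters of other members and in 3.44% of all 32851 promoters in the table. The gamma-activated site, as TTCNNNGAA, was found in Psmb8 (bases 154 to 162, as TTCCCAGAA), in 2 of the 38 and in 8.30% of all promoters. The antioxidant response element, as TGACNNNGC, lies in Psmb5 (bases 204 to 212, as TGACGTCGC), in 5 other members (Psmb6, Psmc6, Psmd12, Psmd9 and Psme4) and in 12.4% of all promoters. The 6 windows of the inducible members hold no match to it. An NF-κB site, as GGGA, N and TTTCC joined, was in no member's window and in 0.411% of all promoters. Of the 49 symbols, 41 had a promoter in the table. A match is a description of letters in a window and says nothing of binding.

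LPS raised most of the proteasome within 6 h, and the inducible members most. edgeR's quasi-likelihood F test called 37 of 48 members higher than in untreated cells at a Benjamini-Hochberg adjusted p under 0.05, where 22.8% of all 12506 genes were called higher, 29.3% lower and 52.1% in either direction. No member was called lower (38 were higher and 0 lower at an unadjusted p under 0.05, and DESeq2 called 40 higher and 0 lower). The median log2 fold change was 2.23 over the inducible members (5 of 5 called), 0.69 over the other 43 members (32 called) and -0.1 over all genes. CPM of the groups did not overlap in 44 members, and in 74.5% of all genes.

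Psme2, which with Psme1 forms the PA28αβ cap, had 602 and 536 CPM with LPS, against 82.9 and 83.6 CPM in untreated cells. It rose by 2.77 on the log2 scale (SE 0.11, adjusted p = 2.8e-05, edgeR), 6.84-fold. Psmb10, which replaces Psmb7, had 316 and 239 CPM with LPS, against 51.6 and 40.0 CPM untreated, with a log2 fold change of 2.60 at an SE of 0.19 (adjusted p = 0.00018). In both genes the lower LPS library was several times above the higher untreated one.

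Psmb8, which replaces Psmb5, had 288 and 226 CPM with LPS and 58.8 and 51.1 CPM untreated (log2 fold change 2.23, SE 0.15, adjusted p = 0.00014). Psmb9, which replaces Psmb6, had 136 and 112 CPM with LPS and 35.2 and 30.2 CPM untreated (log2 fold change 1.92, SE 0.14, adjusted p = 0.00017). Psme1 had 339 and 289 CPM with LPS and 112 and 104 CPM untreated (log2 fold change 1.54, SE 0.12, adjusted p = 0.00018). None of these groups overlapped. By size of fold change the inducible members ranked 1, 2, 4, 5 and 7 among the 48 members.

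**Figure D1:**
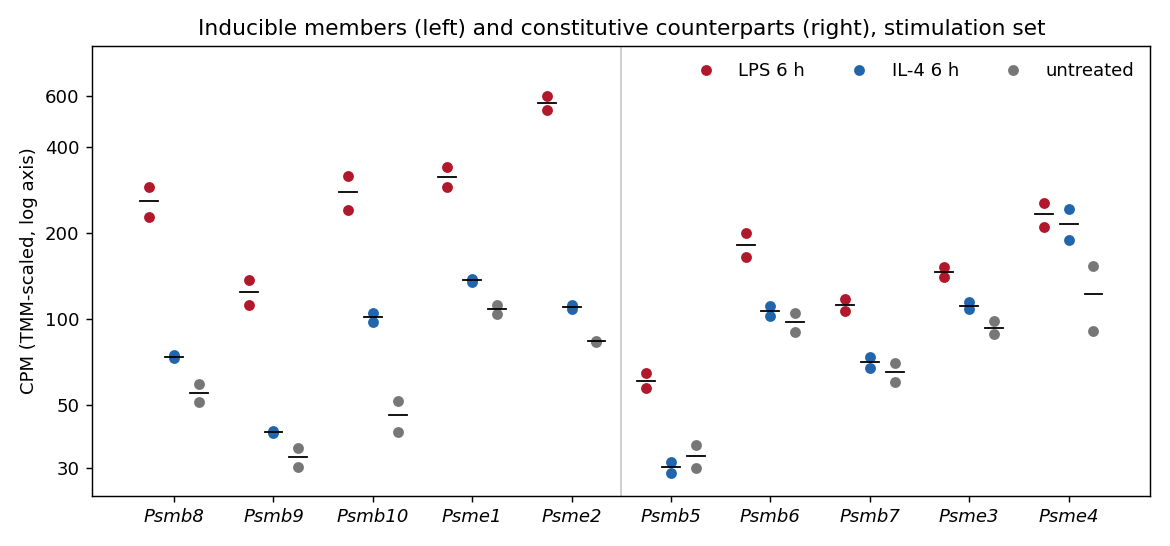
CPM on a log axis for the 5 inducible members (left of the line) and 5 constitutive counterparts (right) in cells given LPS for 6 h, IL-4 for 6 h or nothing. Points are libraries (n = 2 each) and bars are means. With LPS every inducible member lies above both other groups, and with IL-4 Psmb10 stands at 97.3 and 105 CPM, against 51.6 and 40.0 CPM untreated.

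Counterparts of these genes also rose, by less. Psmb5 had 64.3 and 57.0 CPM with LPS and 36.0 and 29.9 CPM untreated (log2 fold change 0.88, SE 0.13, adjusted p = 0.0025). Psmb6 had 199 and 164 CPM with LPS and 105 and 90.1 CPM untreated (log2 fold change 0.90, SE 0.14, adjusted p = 0.0029). Psmb7 had 117 and 106 CPM with LPS and 70.1 and 60.2 CPM untreated (log2 fold change 0.77, SE 0.12, adjusted p = 0.0031). In each of the 3 catalytic pairs the inducible partner had the larger fold change, and the difference between partners was not tested. Psme3, the nuclear PA28γ cap, had 152 and 140 CPM with LPS and 97.8 and 88.0 CPM untreated (log2 fold change 0.66, SE 0.11, adjusted p = 0.0034). Psme4, the PA200 cap, had 210 and 254 CPM with LPS and 90.4 and 153 CPM untreated (log2 fold change 0.93, SE 0.29, adjusted p = 0.044, and 0.067 when blocked on the replicate number, a fit that called 34 members higher, 0 lower, and 21.4% and 26.9% of all genes).

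Among the constitutive subunits 28 of 31 rose, with a median log2 fold change of 0.77 and a range of 0.18 to 2.27. Psma6, an alpha ring subunit, stood out with 537 and 478 CPM with LPS, against 105 and 106 CPM untreated (log2 fold change 2.27, SE 0.11, adjusted p = 4.6e-05). By fold change it ranked 3 among all members, between Psmb10 and Psmb8. The next alpha subunit, Psma5, had 159 and 144 CPM with LPS and 54.2 and 52.0 CPM untreated (log2 fold change 1.51, SE 0.11, adjusted p = 0.00018). In the alpha ring 6 of 8 members rose, and in the constitutive beta ring 6 of 7. Psma1 and Psmb1 had log2 fold changes of 0.18 each (SE 0.11 each, adjusted p = 0.23 each).

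In the regulatory particle 5 of 6 base ATPases rose (log2 fold changes of all 6 from 0.36 to 0.83, with 4 called under the block, where Psmc3 had an adjusted p of 0.053 against 0.031 without it), 3 of 3 other base subunits (0.36 to 0.69) and 8 of 8 lid subunits (0.45 to 0.98). The ATPase Psmc6 had the widest error, at 0.83 (SE 0.37, adjusted p = 0.12). Of the 7 assembly factors 2 rose. Psmd10, also known as gankyrin and a chaperone of the ATPase ring, rose to 102 and 92.9 CPM with LPS, against 29.6 and 30.7 CPM untreated (log2 fold change 1.69, SE 0.10, adjusted p = 8.5e-05). Psmd5, another base chaperone, rose by 0.32 (SE 0.09, adjusted p = 0.032, and 0.059 with the block). Psmg1 and Psmg2, which chaperone the alpha ring, had log2 fold changes of -0.15 and -0.21 (SE 0.12 each, adjusted p = 0.34 and 0.21).

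Normalization bears on the smaller changes, because LPS libraries had low TMM factors (mean 0.806, against 1.10 untreated). Scaled by library totals alone, the median of all genes moved from -0.1 to -0.55, and 20 members were called higher and 4 lower (37 and 0 with TMM), where 12.9% of all genes were higher and 51.2% lower. Under that scaling 5 of the 37 changed sign (Psmc3, Psmd1, Psmd2, Psmd5 and Psmd8), while all 37 stayed above the median of all genes and the 5 inducible members were all called higher.

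Genes that work with the proteasome moved in part. Of 24 partner genes 15 rose and 2 fell with LPS. Pomp, the maturation factor of the core, rose by 0.73 (SE 0.10, adjusted p = 0.0017), and Nfe2l1, the transcription factor that drives proteasome genes when degradation fails, by 0.70 (SE 0.10, adjusted p = 0.0018). The most certain was Nfe2l2, encoding the oxidative stress factor NRF2, with a rise of 0.88 (SE 0.11, adjusted p = 0.0010). Psmf1, the inhibitor PI31, had a log2 fold change of -0.03 (adjusted p = 0.88). Of 10 genes of class I peptide loading 6 rose, among them Nlrc5, the class I transactivator, by 3.48 (SE 0.13, adjusted p = 2.7e-05), Tap1 by 3.04 (SE 0.20, adjusted p = 0.00012) and Tap2 by 2.26 (SE 0.17, adjusted p = 0.00019). Of 13 interferon-driven genes 13 rose, with a median of 2.95, among them Irf1 by 1.98 (SE 0.11, adjusted p = 8.2e-05). Of 6 neutrophil markers 2 of 3 tested rose, their sum was 13.1 to 17.8 CPM with LPS and 2.84 to 3.19 CPM untreated, and Ly6g was at 0 in both groups. Of 6 dendritic cell markers 1 of 4 tested rose, with sums of 5.17 to 5.67 CPM with LPS and 0.962 to 1.18 CPM untreated, where Cd209a was at 0. Their part in the rise was not tested.

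**Figure D2:**
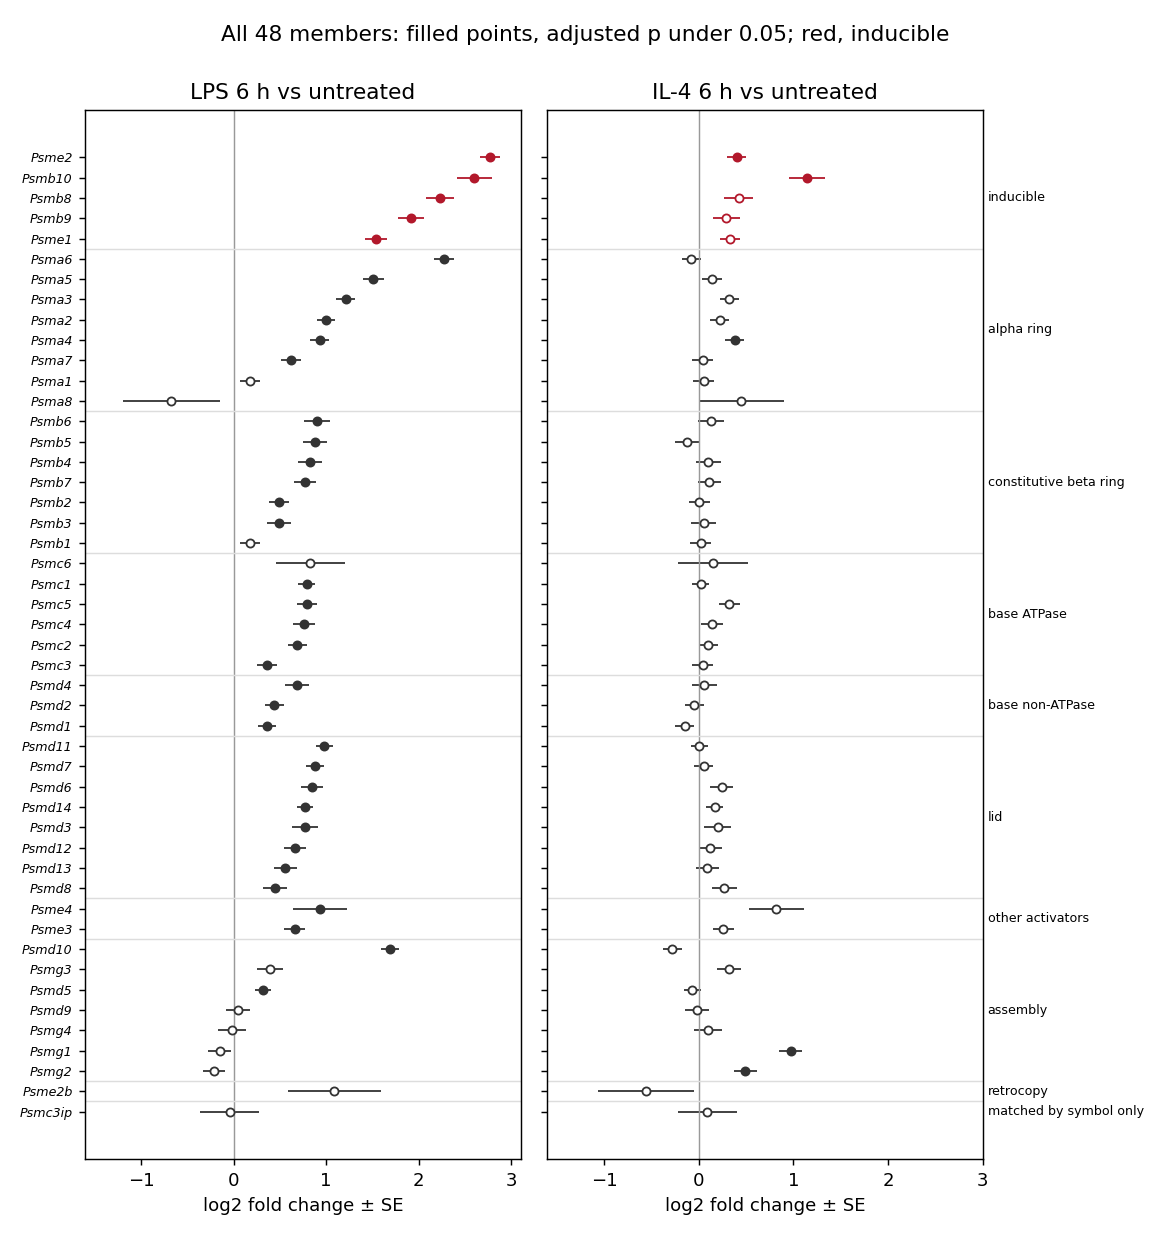
Log2 fold change with its standard error for all 48 members, LPS against untreated on the left and IL-4 against untreated on the right, grouped by role. Filled points passed an adjusted p of 0.05 (edgeR) and red marks the inducible members. Most points of the left panel are filled and lie right of 0, whereas 5 are filled in the right panel, among them Psmb10 and Psmg1.

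With IL-4 the share of members called higher was near that of all genes. Against the same untreated libraries edgeR called 5 of 48 higher, where 9.66% of all genes were called higher and 20.1% in either direction, and none lower (11 were higher and 1 lower at an unadjusted p under 0.05, and DESeq2 called 6 higher and 0 lower). CPM of the groups did not overlap in 23 members and in 58.3% of all genes. Psmb10 had 97.3 and 105 CPM with IL-4, against 51.6 and 40.0 CPM untreated (log2 fold change 1.14, SE 0.19, adjusted p = 0.0093). It was the only inducible member with a log2 fold change above 1. Psme2 had 108 and 112 CPM with IL-4 and 82.9 and 83.6 CPM untreated (log2 fold change 0.40, SE 0.10, adjusted p = 0.040).

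The remaining inducible members did not pass. Psmb8 had 72.8 and 74.3 CPM with IL-4 and 58.8 and 51.1 CPM untreated (log2 fold change 0.42, SE 0.15, adjusted p = 0.11). Psme1 had 134 and 138 CPM with IL-4 and 112 and 104 CPM untreated (log2 fold change 0.33, SE 0.11, adjusted p = 0.10). Psmb9 had 40.5 and 39.7 CPM with IL-4 and 35.2 and 30.2 CPM untreated (log2 fold change 0.29, SE 0.14, adjusted p = 0.21). All 5 inducible members were higher in both IL-4 libraries than in either untreated one, where 58.3% of all genes did not overlap (either direction). The catalytic counterparts Psmb5, Psmb6 and Psmb7 overlapped between the groups, with log2 fold changes of -0.12, 0.13 and 0.11 (adjusted p = 0.60, 0.59 and 0.60). Psme3 and Psme4 had 0.26 and 0.82 (adjusted p = 0.15 and 0.12).

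Psmg1 and Psmg2, 2 of the 4 chaperones of the alpha ring in the set, rose with IL-4. Psmg1 had 12.9 and 13.5 CPM with IL-4, against 6.74 and 6.71 CPM untreated (log2 fold change 0.97, SE 0.12, adjusted p = 0.0035). Psmg2, its partner in the chaperone dimer, had 9.29 and 9.66 CPM with IL-4 and 6.43 and 7.08 CPM untreated (log2 fold change 0.49, SE 0.12, adjusted p = 0.037). Psmg3 and Psmg4, the other pair, had 0.32 and 0.10 (adjusted p = 0.16 and 0.72). Among the 31 constitutive subunits Psma4 alone was called, with 104 and 112 CPM with IL-4 and 80.3 and 85.0 CPM untreated (log2 fold change 0.38, SE 0.10, adjusted p = 0.042), and their median was 0.10. These smaller calls were fragile and depended on how libraries were matched. Same-numbered untreated and IL-4 libraries deviated apart (correlation -0.662), so the replicate number may not suit this comparison as a block. With the IL-4 numbers crossed, a choice made from these counts, more members and more of all genes were called than without a block. When blocked on the replicate number, where 7.89% of all genes were higher, 7.79% lower and 15.7% either, Psmb10 and Psmg1 passed (adjusted p = 0.013 and 0.012), while Psmg2, Psma4 and Psme2 did not (adjusted p = 0.068, 0.081 and 0.081). Leaving out an IL-4 library leaves a lone one in that group, and fewer members and fewer of all genes were then called.

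Of 13 interferon-driven genes 7 fell with IL-4, 5 were not called and 1 rose, where 10.5% of all genes were lower. The gene that rose was Irf1, by 1.72 (SE 0.11, adjusted p = 0.00049). Ifit3 fell by 2.44 (SE 0.11, adjusted p = 0.00016), and 5 genes fell with the block. In the class I loading list Nlrc5 fell by 0.67 (SE 0.12, adjusted p = 0.012) and the tapasin-related gene Tapbpl rose by 0.72 (SE 0.12, adjusted p = 0.0092), while Tap1 and Tap2 had log2 fold changes of -0.05 and 0.02 (adjusted p = 0.91 and 0.96). Among the 24 partner genes 3 rose with IL-4, where 9.66% of all genes were called higher. They were Pomp by 0.39 (adjusted p = 0.040), the shuttle factor Rad23b by 0.37 (adjusted p = 0.038) and Akirin2, which takes proteasomes into the nucleus, by 0.35 (adjusted p = 0.042). None of these 3 passed with the block (adjusted p = 0.082, 0.080 and 0.085). Of the macrophage markers 3 of 8 fell with IL-4, with sums of 26686 to 28815 CPM with IL-4 and 34458 to 38323 CPM untreated. Of the dendritic cell markers 2 of 4 tested rose, with sums of 6.59 to 7.19 CPM with IL-4 and 0.962 to 1.18 CPM untreated, and 2 of 7 stromal markers fell. Their part in the values with IL-4 was not tested.

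Set against IL-4 directly, LPS gave 36 members called higher and 2 lower (edgeR), where 23.4% of all genes were higher, 29.7% lower and 53.1% either. Groups did not overlap in 44 members and in 80.3% of all genes. The inducible members differed by log2 fold changes of 2.37 for Psme2 (SE 0.10, adjusted p = 2.8e-05), 1.81 for Psmb8, 1.63 for Psmb9, 1.46 for Psmb10 and 1.21 for Psme1 (adjusted p of the last 4 from 0.00023 to 0.0012). Outside this group the members with the smallest p were Psma6 at 2.35 (SE 0.11, adjusted p = 3.3e-05) and Psmd10 at 1.97 (SE 0.10, adjusted p = 4.1e-05). Psmb5, Psmb6 and Psmb7 differed by 1.01, 0.76 and 0.66 (adjusted p = 0.0014, 0.0052 and 0.0055), Psme3 by 0.39 (adjusted p = 0.023) and Psme4 by 0.11 (adjusted p = 0.78). The 2 members lower with LPS were Psmg1 (6.40 and 5.69 CPM with LPS, 12.9 and 13.5 CPM with IL-4, log2 fold change -1.13, SE 0.12, adjusted p = 0.00060) and Psmg2 (5.78 and 5.94 CPM with LPS, 9.29 and 9.66 CPM with IL-4, log2 fold change -0.69, SE 0.12, adjusted p = 0.0043). Scaled by library totals alone 14 members were higher and 8 lower, where 13.5% of all genes were higher and 52.5% lower. Under that scaling 6 of the 38 called members changed sign (Psmb3, Psmc3, Psmc5, Psmd13, Psmd5 and Psme3). When blocked on the replicate number, 34 members were higher and 2 lower, where 21.3% of all genes were higher, 27.5% lower and 48.8% either. Leaving out an LPS or IL-4 library leaves a lone library in that group. Fewer members and fewer of all genes were then called than with every library.

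Ratios within a library do not depend on scaling between libraries. Per exonic length, Psmb8 over Psmb5 was 2.48 and 2.19 with LPS, 1.39 and 1.30 with IL-4 and 0.903 and 0.944 untreated. Psmb10 over Psmb7 was 2.40 and 2.0 with LPS, 1.28 and 1.26 with IL-4 and 0.651 and 0.587 untreated. Psmb9 over Psmb6 was 0.404 and 0.403 with LPS, 0.234 and 0.210 with IL-4 and 0.199 and 0.198 untreated. In all 3 pairs both LPS libraries were above both IL-4 libraries, which were above both untreated ones. On this scale Psmb8 and Psmb10 stood above their counterparts with LPS and with IL-4 and below them in untreated cells. Psmb9 stayed below Psmb6 throughout. Which partner comes out higher depends on the exonic length used, here the union of protein-coding exons, so this is not a count of molecules. Psme2 over Psme3 was 10.8 and 10.4 with LPS, 2.72 and 2.67 with IL-4 and 2.31 and 2.59 untreated. These ratios are descriptions, with no test.

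**Figure D3:**
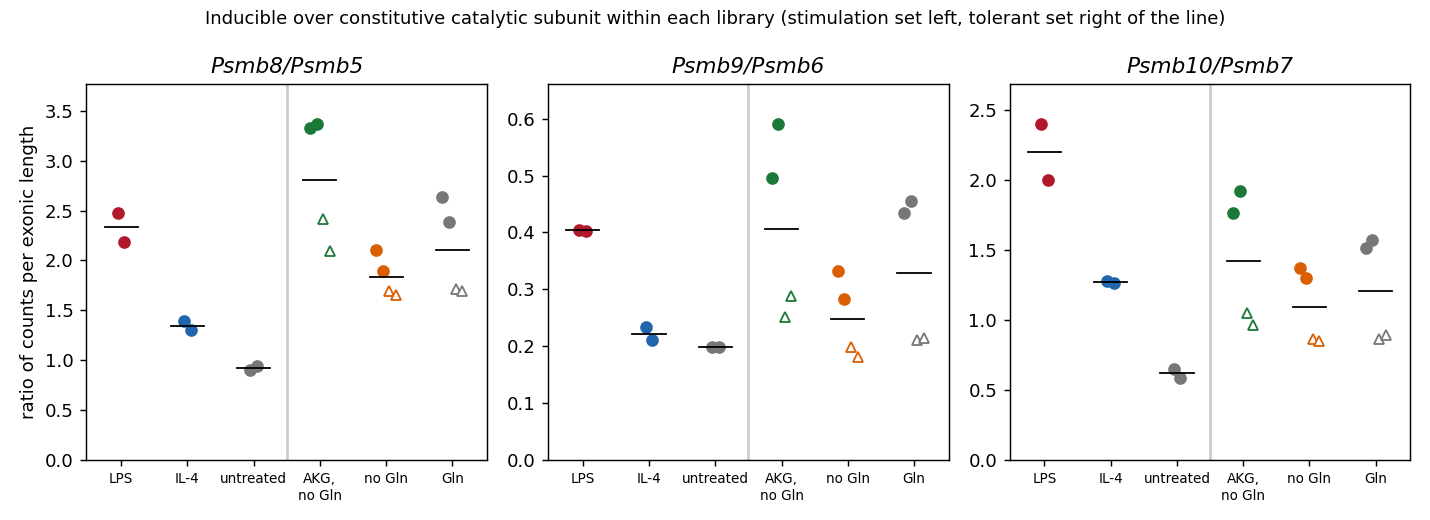
Ratio of each inducible catalytic subunit to its constitutive counterpart, in counts per exonic length, for each library of the 6 groups. Bars are means. Circles in the tolerant set are replicates 1 and 2 and open triangles replicates 3 and 4, which lie lower in all 3 pairs and all 3 groups.

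In the tolerant set the difference between replicates 1 and 2 and replicates 3 and 4 varied in size and sign among the members. Of the 31 constitutive subunits 19 were higher in all 6 libraries of replicates 3 and 4 than in any of replicates 1 and 2, and the median log2 ratio was 0.28, where 14.0% of all genes were higher and 12.3% lower in this way and the median was 0.0041. Psmb10 was lower without overlap (log2 ratio -0.53), and the other inducible members overlapped, with -0.65 for Psmb9, -0.17 for Psmb8, -0.06 for Psme1 and -0.01 for Psme2. The labels do not say what the replicate numbers mark. Same-numbered libraries deviated together (12 correlations of 0.501 to 0.823), and so did differently numbered libraries on the same side of this split (0.465 to 0.836), so each comparison is given without and with the replicate block and on each side of the split.

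**Figure D4:**
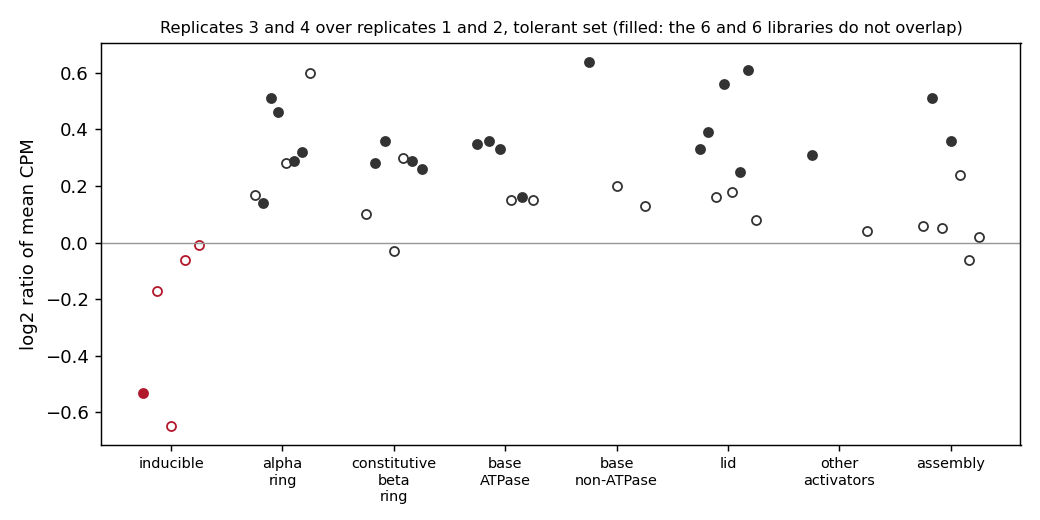
Log2 ratio of mean CPM in replicates 3 and 4 over replicates 1 and 2 of the tolerant set, one point per member, by role. Filled points mark members whose 6 libraries on one side do not overlap the 6 on the other. The inducible members (red) lie below 0 and all 31 constitutive subunits but Psmb4 (-0.03) above it.

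Between cells without and with glutamine the share of proteasome genes called was near that of all genes. edgeR called 2 of 48 members higher without than with glutamine and none lower (3 higher and 0 lower at an unadjusted p under 0.05, 2 and 0 with DESeq2), where 2.3% of all 12492 genes were called higher and 4.7% in either direction. Psmd10, the ATPase ring chaperone, had 38.2, 39.6, 41.0 and 40.9 CPM without glutamine, against 27.9, 28.2, 34.9 and 32.5 CPM with it (log2 fold change 0.37, SE 0.08, adjusted p = 0.026). Psmd8, a lid subunit, had 206, 214, 226 and 194 CPM without glutamine, against 154, 157, 174 and 158 CPM with it (log2 fold change 0.39, SE 0.09, adjusted p = 0.036). These were the 2 members whose groups did not overlap (12.4% of all genes). Both kept their direction on each side of the split, with 0.47 and 0.30 for Psmd10 and 0.43 and 0.36 for Psmd8 in replicates 1 and 2 and in 3 and 4.

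With the replicate block 4 members were called higher, where 8.68% of all genes were higher, 13.0% lower and 21.7% either. The catalytic subunit Psmb6 had a log2 fold change of 0.23 (adjusted p = 0.37, and 0.026 with the block), and the chaperone Psmg2 had 0.29 (adjusted p = 0.27, and 0.040 with the block). Leaving out single libraries moved the count, which was 0 without replicate 1 or 2 with glutamine or replicate 2 or 3 without glutamine. It was 1 without replicate 4 with glutamine or replicate 1 without glutamine. In these refits 229 to 468 of all genes were called, against 587 with every library. Among members lower without glutamine and outside the inducible ones, the smallest p were those of Psmc3ip at -0.39, Psme2b at -0.36 and Psmb2 at -0.16 (adjusted p = 0.44, 0.52 and 0.55). Psmb5, Psmb7, Psme3 and Psme4 had 0.12, -0.04, 0.15 and -0.18 (adjusted p = 0.76, 0.92, 0.60 and 0.59). Stromal fibroblast markers were lower without glutamine (6 of 7 tested genes fell), and their part in these values was not tested.

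No difference of the inducible members between cells without and with glutamine was detected over the 4 libraries. None of the 5 was called (0 at an unadjusted p under 0.05, 0 with DESeq2, 0 with the block) and the median was -0.14. Psmb8 had 95.2, 95.2, 111 and 91.4 CPM without glutamine, against 114, 120, 93.0 and 86.8 CPM with it. Psme2 had 110, 105, 144 and 126 CPM without glutamine, against 132, 132, 116 and 107 CPM with it. Psme1 had the smallest p of the 5, at -0.14 (SE 0.09, adjusted p = 0.48). The groups overlapped, and replicates 1 and 2 went the other way from replicates 3 and 4. In replicates 1 and 2 alone the 5 genes were all called lower (median -0.31), where 15.6% of all genes were lower, 13.0% higher and 28.5% either, and in 3 and 4 alone the median was 0.10 with 0 called, where 13.2% of all genes were. A test of that difference, added after these values were seen, passed for Psme2 (0.57 log2 units, SE 0.13, adjusted p = 0.047, edgeR) and not for Psmb8 (0.47, adjusted p = 0.11), Psme1 (0.39, adjusted p = 0.16), Psmb10 (0.29, adjusted p = 0.30) or Psmb9 (0.38, adjusted p = 0.34). It passed for 1 of the 48 members and for 2.45% of all genes. In the class I loading list Pdia3, a chaperone of the loading complex, fell without glutamine by 0.47 (SE 0.08, adjusted p = 0.0087), 1 of 10 genes. None of the 13 interferon-driven genes was called over the 4 libraries (1 lower at an unadjusted p under 0.05, 0 with DESeq2), with Irf1 at -0.35 (adjusted p = 0.56). This list was split by replicate number too. In replicates 1 and 2 alone edgeR called 8 lower and 0 higher (median -0.6). In 3 and 4 alone it called 3 higher and 0 lower (median 0.12), with the shares of all genes as given above.

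**Figure D5:**
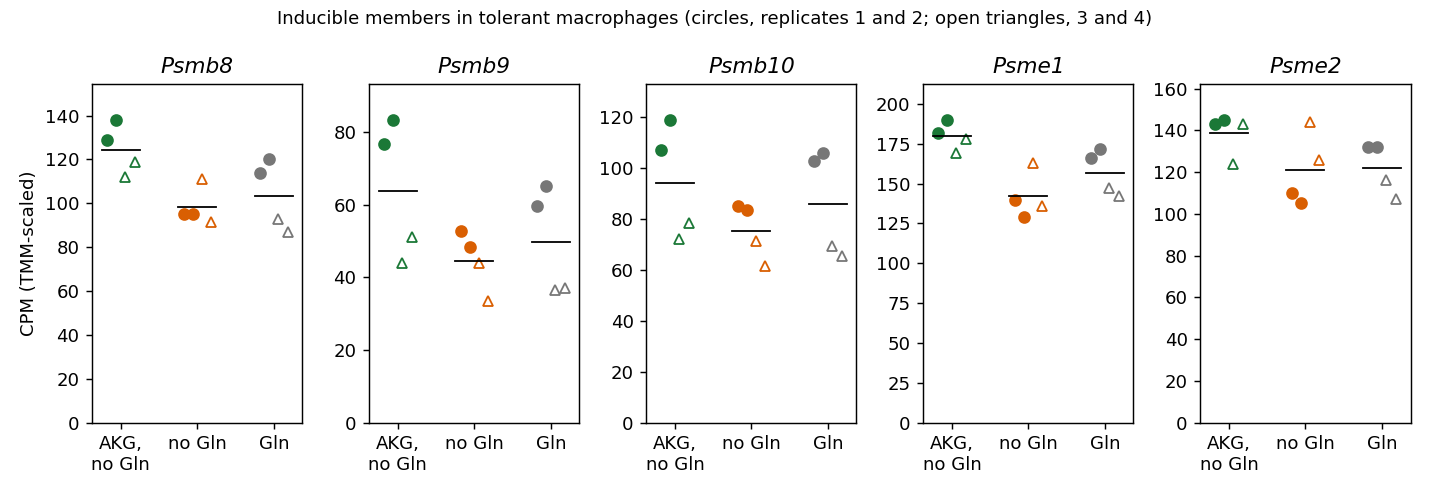
CPM of the 5 inducible members in tolerant macrophages with AKG and no glutamine, with no glutamine, and with glutamine (n = 4 each). Bars are group means, circles replicates 1 and 2 and open triangles replicates 3 and 4. Psmb8 and Psme1 do not overlap between AKG and no glutamine, while Psmb9 and Psmb10 are split more by replicate number than by group.

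With AKG in cells without glutamine all 5 inducible members had higher means, and edgeR called 3 of them with the replicate number blocked and none without the block. Without it edgeR called 0 of 48 members (3 higher and 3 lower at an unadjusted p under 0.05, 1 higher and 1 lower with DESeq2, 0 with limma-voom), where 0.64% of all genes were called higher, 0.849% lower and 1.49% in either direction. The median log2 fold change was 0.34 over the 5 inducible members, -0.01 over the other 43 and 0.0062 over all genes. Psme1 had 182, 190, 169 and 178 CPM with AKG, against 140, 129, 163 and 136 CPM without it (log2 fold change 0.34, SE 0.09, adjusted p = 0.095, and 0.031 with the block). Psmb8 had 129, 138, 112 and 119 CPM with AKG, against 95.2, 95.2, 111 and 91.4 CPM without it (log2 fold change 0.34, SE 0.12, adjusted p = 0.21, and 0.051 with the block). Both were among 5 members whose groups did not overlap, where 9.1% of all genes did not, and the others were Psme2b, Psmd8 and Psmd10.

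Psmb9 and Psmb10 varied more between replicates. Psmb9 had 76.7, 83.3, 43.9 and 51.0 CPM with AKG, against 52.7, 48.3, 43.9 and 33.5 CPM without it (log2 fold change 0.52, SE 0.26, adjusted p = 0.44, and 0.022 with the block). Psmb10 had 107, 119, 72.3 and 78.6 CPM with AKG, against 85.2, 83.5, 71.4 and 61.5 CPM without it (log2 fold change 0.32, SE 0.21, adjusted p = 0.60, and 0.032 with the block). Psme2 had 143, 145, 124 and 143 CPM with AKG, against 110, 105, 144 and 126 CPM without it (log2 fold change 0.19, SE 0.11, adjusted p = 0.54, and 0.33 with the block). Each of these groups overlapped. Within a replicate number AKG was higher for Psmb10 in 4 of 4 pairs and for Psme2 in 3. Psmb9 was higher in replicates 1, 2 and 4 and had 43.9 CPM on both sides in replicate 3. The labels do not say that same-numbered libraries are pairs. Within replicates 1 and 2 the median of the 5 was 0.47 with all 5 called higher, where 12.7% of all genes were higher, 10.9% lower and 23.5% either. Within 3 and 4 it was 0.19 with 0 called, where 5.55% of all genes were. The difference between the sides did not pass for any of the 5 (log2 differences of -0.44 to -0.24, adjusted p of 0.42 to 0.74).

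Psmd8, Psmd10 and Psmg2, which had higher means without than with glutamine, had lower means with AKG. Psmd8 had 180, 142, 179 and 184 CPM with AKG, against 206, 214, 226 and 194 CPM without it (log2 fold change -0.30, SE 0.09, adjusted p = 0.15, and 0.033 with the block). Psmd10 had 36.0, 34.6, 31.3 and 33.3 CPM with AKG, against 38.2, 39.6, 41.0 and 40.9 CPM without it (log2 fold change -0.24, SE 0.08, adjusted p = 0.20, and 0.080 with the block). Psmg2 had -0.37 on that scale (SE 0.13, adjusted p = 0.24, and 0.022 with the block). These values share the libraries without glutamine with the comparison above, so the 2 directions are not independent. With the block 4 members were called higher (Psmb9, Psmb10, Psme1 and Psme2b) and 2 lower (Psmd8 and Psmg2), where 8.32% of all genes were higher, 7.03% lower and 15.3% either. Psme2b differed by 0.76 log2 units (SE 0.25, adjusted p = 0.19, and 0.010 with the block).

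The catalytic counterparts had log2 fold changes of -0.25 for Psmb5, -0.19 for Psmb6 and -0.05 for Psmb7 (adjusted p = 0.54, 0.60 and 0.92). Psmb8 over Psmb5 per length was 3.33, 3.37, 2.42 and 2.09 with AKG, against 2.11, 1.89, 1.69 and 1.65 without it and 2.64, 2.39, 1.71 and 1.69 with glutamine. Within each replicate number it was highest with AKG. Psme1 over Psme3 was 5.24, 6.16, 4.22 and 4.35 with AKG, 4.04, 3.56, 3.56 and 3.02 without it and 4.97, 5.16, 3.61 and 3.73 with glutamine. Psme3 and Psme4 themselves had log2 fold changes of -0.14 and 0.22 (adjusted p = 0.74 and 0.61).

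Of the 13 interferon-driven genes 7 rose with AKG, with a median of 0.82, and Ifit3 among them by 1.33 (SE 0.22, adjusted p = 0.020), while Irf1 had 0.55 (adjusted p = 0.42, and 0.029 with the block). In the class I loading list 0 of 10 genes were called (5 higher at an unadjusted p under 0.05, 2 with DESeq2, 4 with the block), with a median of 0.32. Tap1 had a log2 fold change of 0.50 (adjusted p = 0.38, and 0.033 with the block), Nlrc5 0.54 (adjusted p = 0.59, and 0.0098 with the block) and Tap2 0.30 (adjusted p = 0.55, and 0.10 with the block). Stromal fibroblast markers were not called (0 of 7, 0 at an unadjusted p under 0.05 and 0 with DESeq2) but 6 were higher with the block, and their part was not tested. Nfe2l1 averaged 268 CPM with AKG, 368 CPM without it and 245 CPM with glutamine. Its log2 fold change was -0.46 with AKG (adjusted p = 0.20, and 0.0028 with the block) and 0.59 for the loss of glutamine (adjusted p = 0.057, and 0.00038 with the block). Pomp had 0.11 with AKG and -0.09 for the loss of glutamine (adjusted p = 0.82 and 0.81).

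Between AKG without glutamine and glutamine itself edgeR called 0 of 48 members (2 higher and 1 lower at an unadjusted p under 0.05, 0 with DESeq2, 0 with the block), where 0.0% of all genes were called (7.33% at an unadjusted p under 0.05). With the block 1.63% were higher, 5.38% lower and 7.01% either. The median was 0.20 over the inducible members and 0.0052 over the others. Psmb8 differed by 0.26 log2 units (SE 0.12, adjusted p = 0.65), Psmb9 0.36 (SE 0.26), Psme1 0.20 (SE 0.09, adjusted p = 0.67), Psme2 0.18 (SE 0.11, adjusted p = 0.90) and Psmb10 0.13 (SE 0.21). All 5 were above 0 on each side of the split, from 0.11 to 0.36 in replicates 1 and 2 and from 0.19 to 0.40 in 3 and 4. Psmd10 and Psmd8 had 0.13 and 0.09, and Psmb5, Psmb6 and Psmb7 had -0.12, 0.05 and -0.09. The value farthest from 0 was that of Psmc3ip, at -0.59 (adjusted p = 0.54). Tap1 had 0.60 (adjusted p = 0.50, and 0.016 with the block). The median over interferon-driven genes was 0.57 and edgeR called 0 of 13 (10 higher at an unadjusted p under 0.05, 7 with DESeq2, 8 with the block). For stromal fibroblast markers it was -2.21 and 0 of 7 were called (6 lower at an unadjusted p under 0.05, 4 with DESeq2, 7 with the block), and their part was not tested. Groups overlapped for all 48 members, and 5.57% of all genes did not overlap.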

How the data were processed

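Total RNA of 18 libraries was sequenced with stranded TruSeq kits, per the labels. The authors deposited raw counts per gene symbol in 2 tables. The submitters' processing notes name STAR and HTSeq and the build mm10, and the sources used here give no versions, annotation or strand setting. The members and gene lists were chosen with earlier results of these data known.

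Each table was fitted with all its libraries in R 4.3.3 by edgeR 4.0.16 with limma 3.58.1, through filterByExpr, TMM and the robust quasi-likelihood F test, with group as the only term. P-values were Benjamini-Hochberg adjusted over all genes of the table. CPM are TMM-scaled, and RPKM divide them by the union of protein-coding exons in GENCODE vM21 (GRCm38), which held all 49 symbols. Exons of 4 overlap a same-strand gene and exons of 12 an opposite-strand gene. Errors are SD between libraries, or SE of log2 fold changes. The fit was tested on simulated data. Alternatives were RLE factors, library totals (added after seeing the data), other filters, DESeq2 1.42.0, limma-voom, 2 groups alone, the replicate block, the split of replicates 1 and 2 from 3 and 4, and leaving out each library.

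Same-numbered tolerant libraries deviated together in all 12 pairs (correlations of 0.501 to 0.823), so the block is given beside results it changes. In the stimulation set these ran from -0.662 to 0.501. Named were the 5 inducible members, their counterparts Psmb5, Psmb6 and Psmb7, the caps Psme3 and Psme4, up to 3 further members in each direction by p, and all called members where there were 6 or fewer. From the lists, Nfe2l1, Pomp, Psmf1, Tap1, Tap2, Irf1, Nlrc5 and genes with the smallest p were named. Not every gene this gave is reported here, and Psmd5, Psma1, Psmb1, Psmc6 and Nfkbia were chosen after their values were seen. Figures were drawn with Python 3.11.15 and matplotlib 3.10.9.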

Additional observations from a re-analysis of the deposited data

Results flagged for a closer look

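In groups of 4 libraries, 2 values lay far from the rest of their group by Dixon's ratio, out of 60 groups of 20 named members; chance flags about 1 in 20. Psmd8 had 142 CPM in AKG replicate 2, where the nearest other library had 179 CPM and the gap took 0.879 of the group's range. Psme2 had 124 CPM in AKG replicate 3, where the nearest had 143 CPM and the gap took 0.906 of the range. Neither gene was called with AKG against cells without glutamine by edgeR without the replicate block.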

How the results depend on the processing

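Over 96 pairs of a named gene and a comparison, 1536 alternative values were computed; 1436 kept their side of the threshold with no called value changing sign, 48 lost their call, 51 gained one and 1 reversed. Of these 1436, 36 changed sign where neither fit called the gene. The reversal was Psme3, LPS against IL-4, with -0.09 (adjusted p = 0.50) under library totals alone. Among all called members, named here or not, 5 changed sign under that scaling for LPS against untreated and 6 for LPS against IL-4. Library totals alone gave 24 called members for LPS against untreated (8016 of 12506 genes) and 22 for LPS against IL-4 (8259 of 12506 genes). For without against with glutamine this scaling gave 1 (553 of 12492 genes).

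For loss of glutamine the count was 4 with the replicate block (21.7% of all genes) and 5 with the split as a factor (3090 of 12492 genes). It was 15 in replicates 1 and 2 alone (4 higher, 11 lower, where 28.5% of all genes were called). In replicates 3 and 4 alone it was 0 (13.2% of all genes), and with the 2 groups alone 0 (243 of 12250 genes). With a library left out it was 0 to 2 (229 to 468 of all genes). For AKG against no glutamine it was 6 with the replicate block (15.3% of all genes) and 8 with the split as a factor (2312 of 12492 genes). It was 9 in replicates 1 and 2 alone (23.5% of all genes) and 2 with DESeq2 (682 of 12492 genes). With a library left out it was 0 to 1 (28 to 116 of all genes), and 1 without replicate 3 of the no-glutamine group. For AKG against glutamine it was 2 with the split as a factor (1133 of 12492 genes) and 2 in replicates 1 and 2 alone (1433 of 12353 genes). For IL-4 against untreated it was 2 with the replicate block (15.7% of all genes) and 12 with IL-4 numbers crossed (3965 of 12506 genes). The crossed fit was added because same-numbered IL-4 libraries deviated apart from the others (correlations of -0.662 with untreated and -0.366 with LPS). Same-numbered untreated and LPS libraries deviated together (0.501). This crossing was chosen from the same counts, so its result is not an independent check. With RLE factors the count was 3 (2401 of 12506 genes), and with the 2 groups alone 2 (1747 of 12375 genes). With a library left out it was 28 to 39 for LPS against untreated and 21 to 34 for LPS against IL-4. With the replicate block these 2 counts were 34 and 36 (48.3% and 48.8% of all genes). Without an LPS or IL-4 library, fewer of all genes were called in these comparisons than with every library. Without an untreated library, the number of all genes called for LPS against untreated was almost the same. The lone library left in such a stimulation group is assumed to vary like the others. The causes of these changes were not tested.

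With 2 libraries per stimulation group, small changes are the least certain. Depth limits Psma8 and Psmc3ip, whose levels per length were the lowest of the 48 in all 6 groups.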

Other observations

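Psma6, whose fold change with LPS lay among those of the inducible members, is on chr12:55384222-55418454 (plus strand, GRCm38), 71.0 kb from Nfkbia, which encodes the NF-κB inhibitor IκBα. Nfkbia rose by 2.87 with LPS (SE 0.16, adjusted p = 7.6e-05, edgeR) and had -0.43 with IL-4 (SE 0.15, adjusted p = 0.10), and Psma6 had 2.27 and -0.08 in the same comparisons. In tolerant macrophages Psma6 had 96.3, 97.0, 103 and 119 CPM with AKG, 96.2, 90.1, 116 and 120 CPM without glutamine and 92.2, 86.2, 115 and 109 CPM with glutamine, which overlap.

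Psmb9 and Tap1 are transcribed away from a shared start region. Per exonic length Psmb9 over Tap1 was 0.383 and 0.433 with LPS, 1.18 and 1.05 with IL-4 and 0.858 and 0.908 untreated. In the tolerant set it was 0.669, 0.699, 0.609 and 0.604 with AKG, 0.695, 0.667, 0.636 and 0.568 without glutamine and 0.728, 0.792, 0.752 and 0.828 with glutamine. The libraries with glutamine lie above those of both other tolerant groups, and this was not tested.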
